A study of Mimachlamys nobilis with 6 samples.

Results

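The genes described here are 219 gene IDs whose level was higher in every scallop adductor muscle library with RNA interference (RNAi) against VPS29 than in every control library. They were chosen by a fixed rule from 30231 gene IDs. An ID had to reach at least 1 FPKM (a level per length: sequenced fragments divided by the size of the library and by the length of the gene) in at least 3 of the 6 libraries, which 9715 IDs did. Among these tested genes, a member had its lowest RNAi library above its highest control library, and its mean log2(FPKM + 1) was at least 1 higher in the RNAi libraries. As the members were selected on this contrast, their differences between the groups are descriptions, and no test of them is given.

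The study sequenced RNA from the adductor muscle of a bivalve, the QN Orange scallop (Mimachlamys nobilis), at an age of 1 year, with 3 libraries from the control group without RNAi and 3 from the group with RNAi against VPS29. The labels name no control RNA or dose for either group. They speak of total RNA per tank but do not say if a group's libraries are separate tanks or animals, so a p-value here reflects library-to-library spread that may be technical. In such bulk tissue, a change in the number of cells of a type and a change in RNA per cell cannot be told apart.

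VPS29 is a subunit of retromer, a protein complex that was worked out in yeast and mammalian cells. Retromer sits on endosomes and sends membrane proteins such as receptors back to the Golgi or to the cell surface, so that they escape breakdown in the lysosome. The adductor muscle closes the shell, and in scallops it is built largely of striated fibres that power swimming by clapping the valves.

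Whole read numbers could be derived from the FPKM steps, and their totals ran from 16151389 in RNAi replicate 1 to 21546537 in control replicate 3. In each library 9172 to 9523 IDs reached 1 FPKM. The most abundant gene of each library alone held 36.3%, 29.0% and 48.7% of the reads in the controls, by replicate number. In the RNAi libraries the most abundant gene of each held 34.5%, 22.5% and 22.5%, in the same order. Whether the same gene was the most abundant in every library is not given here. RNAi replicate 1 thus lay within the range of the controls in this share. The files do not pair IDs with gene names, so neither the VPS29 transcript nor the markers of muscle or of any other cell type were checked here, and the knockdown is known from the labels alone. For the same reason no role can be given to a member. Members are described by contig (the assembled stretch of genome that most IDs name) and by the length inferred from the FPKM steps. A length in the text serves only as a name, since 10 of the 11 lengths of the members described in most detail are shared with another tested gene. A gene whose reads share a common factor would get too short a length.

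The 219 members were 2.25% of the 9715 tested genes. This number depended on the kind of scaling and on the pseudocount. The rule was met by 1077 genes after scaling to TPM, by 836 after scaling to total recovered reads and by 425 with a pseudocount of 0.1. All 219 members had to be among them each time. Both scalings multiply every RNAi library by a larger factor than every control library, and a smaller pseudocount widens a positive difference. Median-of-ratios scaling gave 207 genes, all of them members, and quantile normalization gave 263, of which 213 were members. A larger number, 1018 tested genes (10.5%), had every RNAi library above every control library, and 799 of them stayed under the size threshold. Another 68 genes reached the size but overlapped between the groups. In limma, fitted on log2(FPKM + 1) over all tested genes with Benjamini-Hochberg adjustment, 0 genes (0.0%) were higher in RNAi muscle at an adjusted p under 0.05, and 751 (7.73%) were higher at an unadjusted p under 0.05. Voom on the recovered reads, using the library sizes behind the FPKM rather than the read totals, also gave 0 at the adjusted threshold. It thus kept the scaling of the FPKM, and gave 699 higher genes at the unadjusted threshold. The adjusted count became 149 under TPM, 94 under total recovered reads and 3 with a filter of 5 FPKM. Both of these scalings shift the tested genes as a whole upward, from a median log2 difference of -0.05 to 0.49 and 0.42. All 219 members were among the 751, and the 22 genes that were higher at an adjusted p under 0.1 were all members. The rule used this same contrast, so these counts say nothing about the members beyond the rule.

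Most members differed modestly. Their median log2 difference was 1.26, beside -0.05 over all tested genes, and it ran from 1.001 to 4.05. For 161 members it was under 1.5, for 34 between 1.5 and 2, for 19 between 2 and 3, and for 5 it was at least 3. Differences on this scale understate the change of genes with low values. The median member had 2.09, 2.92 and 1.95 FPKM in control replicates 1, 2 and 3, and 6.52, 8.10 and 8.31 FPKM in RNAi replicates 1, 2 and 3. Over all tested genes these medians lay between 3.02 and 3.35 FPKM in all 6 libraries. The members thus sat below the typical tested gene in control muscle and above it in RNAi muscle, as the rule favours.

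**Figure D1:**
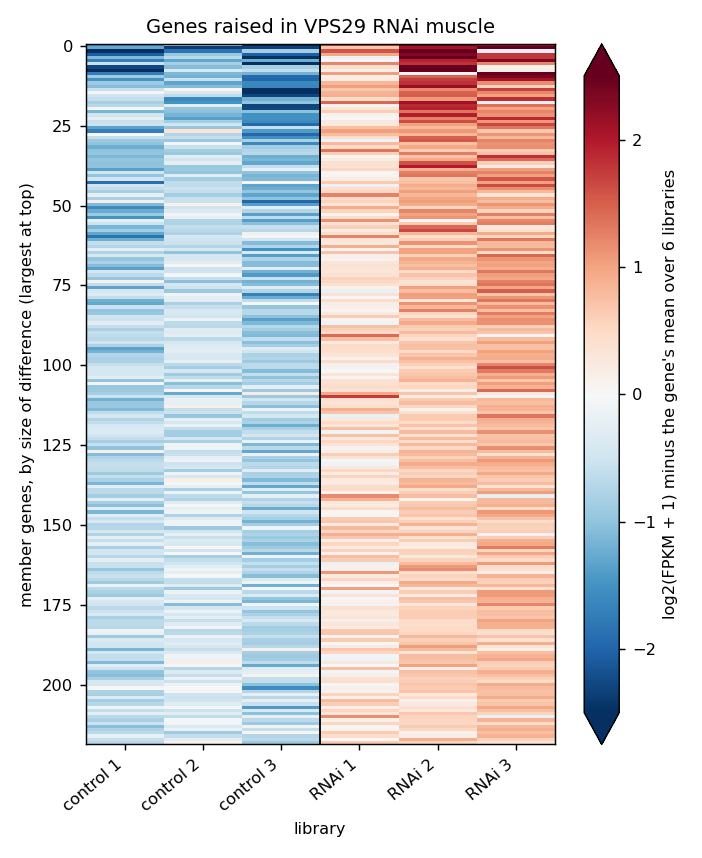
Each row is one of the 219 members, ordered by the size of the log2 difference, and each column is a library; colour gives log2(FPKM + 1) minus the gene's mean over the 6 libraries. The 3 control columns are bluer than the 3 RNAi columns, as the rule requires, and RNAi replicate 1 is the palest of the RNAi columns in most rows.

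In control muscle 53 members had a mean under 1 FPKM, 105 lay between 1 and 5, 47 between 5 and 20, 10 between 20 and 100, and 4 at 100 FPKM or more. In RNAi muscle 77 lay between 1 and 5, 87 between 5 and 20, 45 between 20 and 100, and 10 at 100 FPKM or more. Members therefore spanned scarce to abundant transcripts, but few were abundant. Together they held 0.317%, 0.491% and 0.161% of the recovered reads of the controls, by replicate number, and 1.08%, 1.71% and 1.54% of those of the RNAi libraries. Their inferred lengths had a median of 1563 bases and ran from 190 to 14094 bases, beside a median of 1944 bases over all tested genes.

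**Figure D2:**
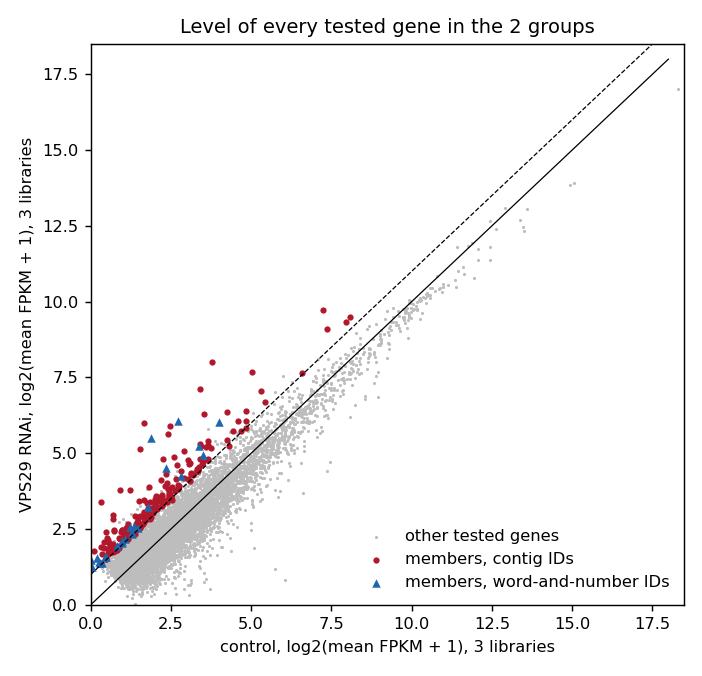
Each point is a tested gene, placed by log2(mean FPKM + 1) of 3 control libraries on the x axis and of 3 RNAi libraries on the y axis; the full line marks equal levels and the broken line a difference of 1. Members (red dots for contig IDs, blue triangles for IDs made of a word and a number) lie near or above the broken line, and most are in the lower part of the range.

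The number of reads behind a member varied widely. In 31 members every control library was under 1 FPKM, so they passed the filter on low values through the RNAi libraries alone and had to differ in this direction. In 13 members no control library reached 10 reads, and 13 members were at 0 in at least 1 control library. In the RNAi libraries 218 members had at least 10 reads in every library, the remaining one having 8 in its lowest. The distance between the lowest RNAi and the highest control library, on the log2(FPKM + 1) scale, had a median of 0.54. It was at least 1 in 24 members and under 0.2 in 34. Within a group, the median SD over members was 0.40 in control and 0.39 in RNAi muscle, against 0.34 and 0.27 over all tested genes. Members thus had a median SD between libraries of the same group above that of all tested genes, in both groups.

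The largest difference belonged to a gene of 2029 bases on Contig902. It had 10.6, 16.5 and 1.73 FPKM in control replicates 1, 2 and 3, and 103, 173 and 138 FPKM in RNAi replicates 1, 2 and 3. The lowest RNAi library thus stood far above the highest control library, and this gap of 2.57 on the log2(FPKM + 1) scale was the widest of all members. Its log2 difference was 4.05 ± 0.62 (SE), and control replicate 3 was well below the other controls. Every SE given with a log2 difference is limma's, which draws each gene's variance toward the trend over all tested genes. Such an SE can be smaller or larger than the spread of the gene's own libraries would give. A gene of 503 bases on Contig1226 came next, at 20.2, 9.06 and 9.22 FPKM in control replicates 1, 2 and 3, and at 82.4, 217 and 463 FPKM in RNAi replicates 1, 2 and 3. Its log2 difference was 3.97 ± 0.60 (SE). The RNAi libraries of this gene differed more among themselves than its controls did, with replicate 3 highest and replicate 1 lowest.

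A gene of 812 bases on Contig219 followed, with 0.542, 1.65 and 4.25 FPKM in the controls and 27.5, 153 and 7.17 FPKM in RNAi replicates 1, 2 and 3. Most of its RNAi mean came from replicate 2, while replicate 3 lay close above control replicate 3. Its log2 difference of 3.57 therefore had a large error, 0.95 (SE). Next were a pair of IDs without a contig. The gene of 639 bases had 3.70, 9.13 and 3.73 FPKM in the controls and 37.1, 96.5 and 65.4 FPKM in RNAi replicates 1, 2 and 3, a log2 difference of 3.37 ± 0.43 (SE). All its RNAi libraries were clear of its controls, with a gap of 1.91. The gene of 967 bases had 3.30, 4.85 and 0 FPKM in control replicates 1, 2 and 3. A count of 0 allows an expected count of up to 3 reads. In RNAi replicates 1, 2 and 3 this gene had 7.53, 93.4 and 30.6 FPKM, a log2 difference of 3.33 ± 0.91 (SE). Its RNAi libraries were widely spread, replicate 1 being near the controls.

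The members with the highest levels had smaller differences. The highest mean in RNAi muscle was that of evm.TU.Contig248.76, an ID with an inferred length of 201 bases. It had 180, 113 and 161 FPKM in control replicates 1, 2 and 3, and 864, 1382 and 278 FPKM in RNAi replicates 1, 2 and 3, from 516 to 690 reads per control library and 1737 to 9660 per RNAi library. Replicate 3 was much lower than the other RNAi libraries, and the log2 difference was 2.22 ± 0.55 (SE). The next, evm.TU.Contig414.12 of 1098 bases, had 245, 356 and 200 FPKM in control and 527, 775 and 846 FPKM in RNAi replicates 1, 2 and 3. It was also the most abundant member in control muscle, with means of 267 ± 80.3 FPKM there and 716 ± 167 FPKM after RNAi (SD, n = 3 per group). Its log2 difference was 1.43 ± 0.32 (SE).

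The second most abundant member in control muscle was a gene of 2505 bases on Contig79. Its level was 405, 249 and 92.2 FPKM in control replicates 1, 2 and 3, and 539, 755 and 623 FPKM in RNAi replicates 1, 2 and 3. The controls of this gene spanned a wider range than its RNAi libraries, and the log2 difference was 1.58 ± 0.50 (SE). A gene of 423 bases on Contig248 came after it, at 139, 236 and 114 FPKM in control and 364, 844 and 423 FPKM in RNAi replicates 1, 2 and 3. Replicate 2 was the highest library in both groups, and the log2 difference was 1.70 ± 0.41 (SE).

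**Figure D3:**
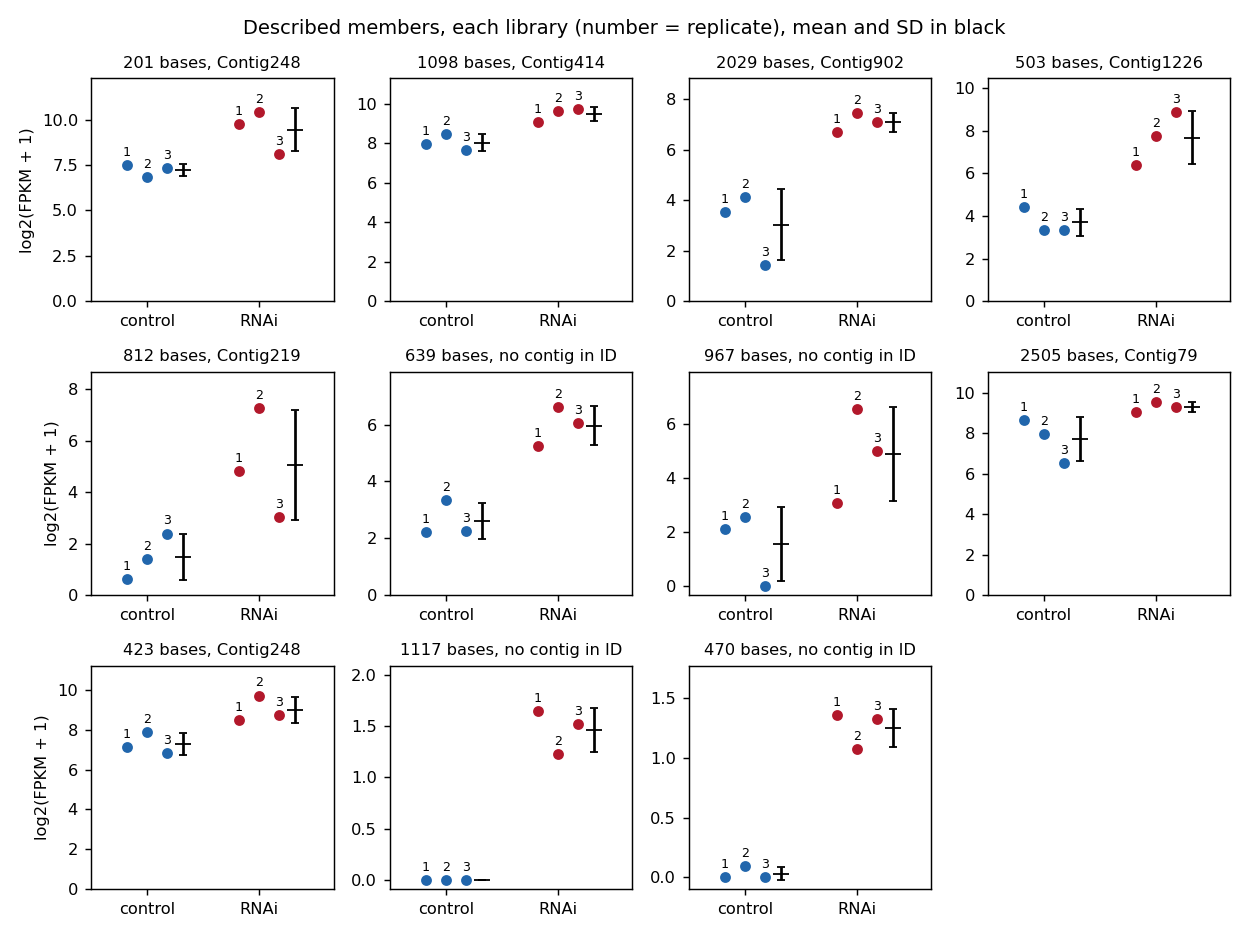
Each panel is one member, named by inferred length and contig; points give log2(FPKM + 1) of each library with its replicate number, control in blue and RNAi in red, and black bars the mean and SD of 3 libraries. In the panels of 2029 and 639 bases the groups are far apart, and in those of 812 and 967 bases the RNAi libraries spread over a wide range.

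With off taken as under 0.1 FPKM in every control library, 2 of the 219 members and 2 of the 9715 tested genes (0.0206%) were off in control muscle. Such genes pass the filter on low values through the RNAi libraries alone, so they had to be higher there. Both had an ID without a contig. There were 5 without control replicate 2, 1 under TPM and 0 with a filter of 5 FPKM. A gene 1117 bases long had 0 reads in every control library, which allows an expected count of up to 3 in each. Its RNAi replicates 1, 2 and 3 held 58, 52 and 65 reads, or 2.13, 1.34 and 1.87 FPKM. A gene 470 bases long had a single read among the controls, in replicate 2. Its RNAi replicates 1, 2 and 3 held 18, 18 and 22 reads, or 1.57, 1.10 and 1.51 FPKM. Both were scarce in RNAi muscle too, and their RNAi libraries were close to each other. In the remaining members at least 1 control library reached 0.1 FPKM.

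At the threshold on size, members and nonmembers were alike. The 3 members with the smallest differences were at 1.001, 1.002 and 1.006, and the 3 genes just outside it, with groups apart, at 0.9997, 0.9996 and 0.999. A gene of 566 bases on Contig126, just inside, had 1.17, 2.78 and 0.886 FPKM in the controls and 4.48, 4.12 and 3.41 FPKM in RNAi replicates 1, 2 and 3. A gene of 6839 bases on Contig347, just outside, had 1.42, 1.34 and 1.25 FPKM in the controls and 3.08, 3.67 and 4.34 FPKM in RNAi replicates 1, 2 and 3. The gene outside the threshold had the wider gap between the groups, 0.75 against 0.22. Of the genes kept out by overlap, the largest difference was 2.56, for a gene of 3195 bases on Contig449. Its controls were at 42.1, 0 and 0.863 FPKM and its RNAi libraries at 54.2, 20.4 and 13.01 FPKM, so that control replicate 1 alone overlapped the RNAi range.

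Many members had the same order of libraries within each group, which the rule did not set. RNAi replicate 1 was the lowest RNAi library in 150 members (68.5%), against 41.3% of all tested genes. RNAi replicate 3 was the highest in 124 members, replicate 2 in 65 and replicate 1 in 30. On the control side, replicate 2 was the highest in 112 members (51.1%, against 32.1% of all tested genes) and replicate 3 the lowest in 121 (55.3%, against 36.3%). Among IDs that name a contig, RNAi replicate 1 was lowest in 71.1% of members and 46.8% of tested genes. Among these IDs control replicate 2 was highest in 52.1% and 36.2%, and control replicate 3 lowest in 54.6% and 40.2%. In 59 members (26.9%, against 13.3% of all tested genes) RNAi replicate 1 was lowest and the controls ran in the order 2, 1, 3 from high to low. For IDs that name a contig this order held in 26.3% of members and 15.45% of tested genes. Within the controls this order was the reverse of that of the read share of each library's most abundant gene, at 29.0%, 36.3% and 48.7%. Within the RNAi group, replicate 1 had the highest such share. The part of this read share in the members' differences was not tested.

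**Figure D4:**
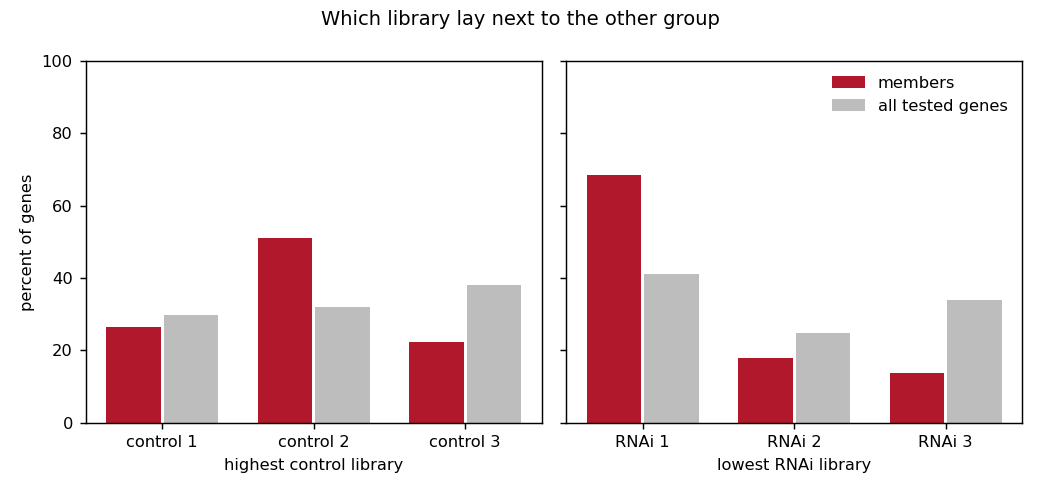
Bars give the percent of the 219 members (red) and of all 9715 tested genes (grey) in which each library was the highest control library (left) or the lowest RNAi library (right). Control replicate 2 and RNAi replicate 1 reach 51.1% and 68.5% of the members.

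Leaving out a library changed which genes met the rule. Without RNAi replicate 1 the rule gave 348 genes, of which 177 were among the 219, and without control replicate 2 it gave 388 genes, of which 209 were. Both exceed 1.5 times the 219 genes found with all libraries. When an RNAi library is left out, 188 of the 219 members still pass the filter on low values. Of these, 146 met the rule without RNAi replicate 3, 162 without replicate 2 and 177 without replicate 1. Without control replicates 1, 2 and 3, when all 219 still pass the filter, 186, 209 and 170 met it. Leaving out a library cannot undo the separation of the groups, so among members still tested only the size could fail. Separation is also easier to meet with fewer libraries. In 14 members (6.39%, against 4.08% of all tested genes) the top RNAi library was at least 2 times the second in FPKM + 1. It was RNAi replicate 2 in 7 of them, replicate 3 in 6 and replicate 1 in 1. The most uneven was a gene of 528 bases on Contig219, at 10.9, 153 and 11.0 FPKM in RNAi replicates 1, 2 and 3.

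The IDs come in 2 styles. Contig IDs name a contig and a number, and word IDs join an everyday word to a number and give no position. Of 7989 tested contig IDs 194 were members (2.43%), and of 1726 tested word IDs 25 were (1.45%). Word IDs thus made up 11.4% of the members and 17.8% of the tested genes. Their lower share went with lower values in RNAi muscle across this style, since the median log2 difference of all tested word IDs was -0.33, beside 0.01 for contig IDs. All RNAi libraries exceeded all controls in 4.35% of word IDs and 11.8% of contig IDs, while the reverse held in 15.4% and 11.5%. Over all tested word IDs, RNAi replicate 1 was the highest RNAi library in 68.3%, yet in the 25 members of this style it was the lowest in 12 and the highest in 8. Without RNAi replicate 1, the share of word IDs among the genes meeting the rule was 5.17%.

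The 25 members with a word ID were shorter and scarcer than the 194 with a contig ID. Their median length was 1117 against 1581 bases, and their median level in RNAi muscle was 4.07 against 8.76 FPKM. The median log2 difference was 1.17 against 1.26. They included 2 of the 5 largest differences and both off-to-on genes. Over all tested word and contig IDs, the median lengths were 1886 and 1956 bases and the median levels in RNAi muscle 2.26 and 3.37 FPKM. The lower level of word IDs in RNAi muscle was thus not particular to members.

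Members with contig IDs lay on 135 of the 820 contigs that had a tested gene. On 33 contigs there were at least 2 members, 92 in all, and on 14 contigs at least 3. Contigs with more tested genes can hold more members at the common share of 2.43%, and no background was computed for these counts. Adjacent numbers were taken as neighbours, although no source used here states that the numbers follow the order along a contig. By this measure 26 of the 194 members (13.4%) had another member as a direct neighbour, while 149 of all 7989 tested contig IDs (1.87%) had a member beside them. The count of 26 moved with the number of genes that met the rule, to 44 without control replicate 2, 14 with a filter of 5 FPKM and 158 under TPM. These 26 formed 11 runs, none longer than 3. Nonmembers beside a member went both ways. The median log2 difference of those 123 genes was 0.06, against -0.01 for the 7672 other nonmembers, and 56.1% against 49.3% were above 0. All RNAi libraries exceeded all controls in 13.8% of them, against 9.54%.

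Neighbouring members also tended to be high and low in the same libraries. For the 15 neighbour pairs, the correlation of the deviations from the group means over the 6 libraries had a median of 0.81 and ran from 0.05 to 0.95, and 12 pairs were above 0.5. Over all pairs of members the median was 0.30. The points of each correlation share their libraries. Overlap or shared sequence between neighbours was not tested, as no genome was used here.

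The largest group on a contig was on Contig412, where 7 of 37 tested genes were members, 6 of them close together in number. A run of 3 members there comprised genes of 1898, 1372 and 1562 bases. The gene of 1372 bases had 15.5, 11.96 and 0.959 FPKM in control replicates 1, 2 and 3 and 30.3, 46.5 and 38.1 FPKM in RNAi replicates 1, 2 and 3. The gene of 1898 bases had 6.96, 7.32 and 1.92 FPKM in control and 12.6, 22.3 and 35.5 FPKM in RNAi replicates 1, 2 and 3. The gene of 1562 bases had 5.18, 2.20 and 0.281 FPKM in control and 6.73, 22.7 and 11.5 FPKM in RNAi replicates 1, 2 and 3. In all of the run, control replicate 3 was the lowest library and RNAi replicate 1 the lowest RNAi library. Log2 differences over the 7 members were 1.05 to 2.37, and the 30 other tested genes of the contig had a median of 0.08. Next in number of members were Contig104, with 5 of 89 tested genes, and Contig79, with 5 of 94. Their members were mostly scattered, each with 1 pair of neighbours, and their log2 differences were 1.09 to 1.60 and 1.01 to 1.61.

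On Contig902 there were 4 members among 25 tested genes, close together in number. The gene of 2029 bases with the largest difference stood beside one of 2274 bases, which had 24.9, 22.5 and 6.40 FPKM in control and 66.6, 103 and 71.9 FPKM in RNAi replicates 1, 2 and 3. In both of these genes control replicate 3 was the lowest control and RNAi replicate 2 the highest RNAi library. The neighbour on the other side, of 1203 bases, had 15.7, 6.92 and 8.02 FPKM in control and 20.6, 21.8 and 33.2 FPKM in RNAi replicates 1, 2 and 3, with another order of libraries. The tested gene that separates the fourth member, of 2415 bases, from this run had a log2 difference of 0.33 ± 0.24 (SE).

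On Contig248 all 4 members had their highest level in RNAi replicate 2. These were evm.TU.Contig248.76, its neighbour of 420 bases, a gene of 624 bases and the gene of 423 bases. The gene of 420 bases had 35.5, 35.0 and 23.6 FPKM in control and 157, 347 and 113 FPKM in RNAi replicates 1, 2 and 3. That of 624 bases had 1.94, 1.21 and 0.804 FPKM in control and 8.72, 18.6 and 11.4 FPKM in RNAi replicates 1, 2 and 3. Between them stood a gene of 1060 bases with a log2 difference of -0.52 ± 0.26 (SE), and the 22 nonmembers of the contig had a median of -0.01. Members were thus interleaved with genes that did not share their difference.

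The 3 members of Contig219 formed a run, and RNAi replicate 2 was the highest library in each. The genes of 812 and 528 bases both reached 153 FPKM there, against 27.5 and 10.9 FPKM in RNAi replicate 1. The gene of 504 bases had 0, 0.130 and 0.124 FPKM in control and 1.06, 4.79 and 1.40 FPKM in RNAi replicates 1, 2 and 3. The next gene in number, of 672 bases, had the same high library, at 0.792, 4.37 and 1.10 FPKM in RNAi replicates 1, 2 and 3, but was under the filter. A contrasting run stood on Contig1808, where 3 of 5 tested genes were members. Their inferred lengths of 6296, 6415 and 7143 bases were far above the median member, and their levels were low. The gene of 6415 bases had 1.37, 1.35 and 1.05 FPKM in control and 3.93, 4.02 and 3.77 FPKM in RNAi replicates 1, 2 and 3. Its libraries were close within each group, with a log2 difference of 1.12 ± 0.19 (SE).

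**Figure D5:**
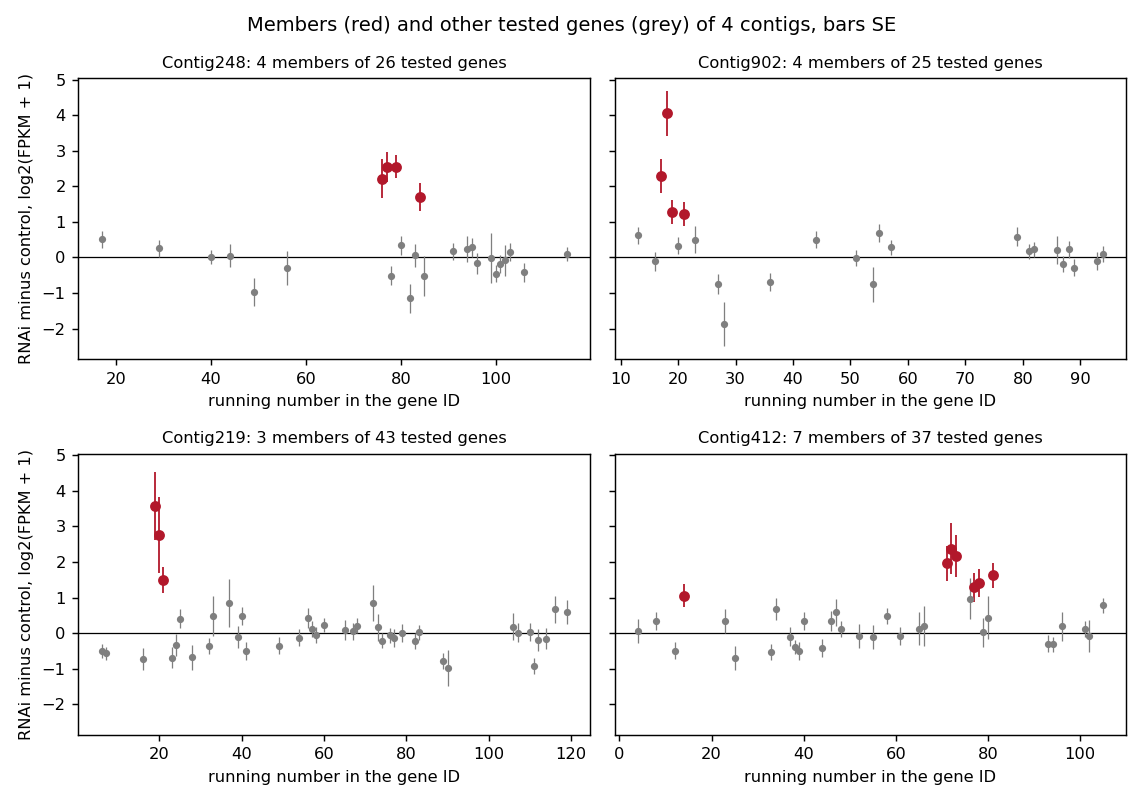
Each panel is a contig, with the running number in the gene ID on the x axis. The y axis gives the log2(FPKM + 1) difference of RNAi minus control, and bars are limma's SE. Members (red) stand in tight groups of numbers on Contig248, Contig902, Contig219 and, apart from 1 gene, Contig412, while most other tested genes (grey) lie near 0.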

How the data were processed

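The authors deposited FPKM per gene ID and library, and these values were taken without change. The tools named, per the submitters' processing notes, are HISAT2 2.0.4 and HTSeq 0.9.1. Strand setting, annotation and build: not given in the sources used here. One length per gene and one size per library turned the FPKM into whole reads, within 0.01 read, for 23403 of 23408 genes above 0 (99.98%). These sizes, 15953438 to 34767399, differ from the read totals, so the authors' FPKM carry another scaling.

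Members and descriptions were computed in Python 3.11.15 (pandas 2.3.3). limma 3.58.1 in R 4.3.3 (lmFit, eBayes with trend and robust) was fitted to log2(FPKM + 1), with group alone in the model and two-sided p-values. The SE of log2 differences come from this fit, with variances drawn toward the trend over all tested genes. The fit was also run on simulated data in which genes varied independently, and that outcome is not reported here. No other columns of per-sample values were in the files.

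Members, lists and tests were chosen with earlier results of these data known. By rule, the 2 contig IDs with the highest RNAi mean are printed. Described without ID are the 5 largest differences, the 3 most abundant members in control, the off-to-on members, the contigs with the most members, the genes beside the threshold and the widest gap. Contig902, Contig248, Contig219, Contig1808 and their genes, and the gene with the most uneven libraries, were chosen after their values were seen. Alternatives were each library left out, other filters, pseudocounts, scalings, thresholds, voom, plain eBayes and a replicate block.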

Additional observations from a re-analysis of the deposited data

How the results depend on the processing

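With 1 library left out, 185 to 388 genes met the rule (348 without RNAi replicate 1, 388 without control replicate 2). The original members that were still tested had a median log2 difference of 1.16 to 1.40. Word IDs made up 5.17% to 12.7% of the genes that met the rule. Off-to-on genes numbered 0 to 5 and members beside a member 22 to 44. Without an RNAi library the off-to-on count is 0 by construction, since 3 libraries must reach 1 FPKM. A filter of 5 FPKM gave 117 genes, 3 limma calls, 6.84% word IDs, 0 off-to-on genes and 14 beside a member. TPM gave 1077 genes, 149 calls, 1 off-to-on gene and 158 beside a member. The median log2 difference of the 219 members became 1.97 under TPM. Total recovered reads gave 836 genes and 94 calls, with a median of 1.80 over the 219 members. Both scalings had to hold all 219 members, as they multiply every RNAi library by a larger factor than every control library. They shift the tested genes as a whole, whose median goes from -0.05 to 0.49 (TPM) and 0.42 (total reads). With that shift taken off, an alternative chosen after seeing the data, they gave 359 and 307 genes. Median-of-ratios scaling gave 207 genes and quantile normalization 263. A pseudocount of 0.1 gave 425 genes, with a median of 1.70 over the 219 members. A size of at least 2 gave 24 genes, whose own median was 2.61. Off at 0 FPKM left 1 off-to-on gene. At an adjusted p under 0.1 limma called 22 genes higher, and 751 at an unadjusted p under 0.05. The other alternatives, and each library left out, gave 0 calls at an adjusted p under 0.05. Beyond the shift of all genes and fewer genes or libraries tested, the cause was not tested.

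Deviations from the group means correlated at -0.04, 0.29 and -0.33 between libraries of the same number. These values cannot show whether such libraries share a tank or batch, and the labels state no pairing. With a replicate block limma made 0 calls and had 697 higher genes at an unadjusted p under 0.05. For the 11 described members 126 values were tried: 114 moved by less than 1 SD, 12 by more, and 0 changed sign. The choice of members fixes this direction when a library is left out, the pseudocount is changed or a replicate block is added. It also fixes the direction under TPM and total recovered reads, which multiply every RNAi library by a larger factor than every control library. The block leaves each difference as it was, so its values could not move. A count of 0 allows an expected count of up to 3 reads.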
